A study of Drosophila melanogaster with 12 samples.

Results

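The 10 genes hh, ci, ptc, smo, dpp, tkv, brk, wg, h and emc carry the Hedgehog, Dpp and Wingless signals, and the repressors that respond to them, at the morphogenetic furrow of the Drosophila eye disc. They were chosen by name, and their probe sets were those that the platform annotation gives to 1 of these genes by symbol or synonym. The rule found 9 probe sets among 18952 in the table, for 8 genes of the 11983 genes with a probe set of their own. hh, ci, ptc, smo, dpp, h and emc have 1 probe set each and tkv has 2. h is listed under its present symbol, hry. brk and wg were not analysed here, so the Wingless signal is covered below only through other genes of its pathway.

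The furrow is the front of differentiation that crosses the eye disc from posterior to anterior during the last larval stage. Hedgehog, secreted by the photoreceptors that have formed behind the furrow, binds Patched (ptc), which frees Smoothened (smo) to signal through the transcription factor Cubitus interruptus (ci) in the cells ahead. Those cells then transcribe dpp, which encodes a BMP ligand received by Thickveins (tkv), and together the signals advance the furrow, while Wingless at the disc margins holds furrow initiation back. Ahead of the furrow, the helix-loop-helix repressors Hairy (h) and Extramacrochaetae (emc) restrain proneural gene activity.

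RNA from eye discs of wandering larvae of the third instar, freed of antennae per the labels, was hybridised to 12 arrays in 2 experiments of 6, and every fly was mutant for w. In the first experiment, 3 samples carried ro-Gal4 with UAS-Run and expressed wild-type Runt, a RUNX transcription factor, and 3 carried ro-Gal4 with UAS-Run[G163R], which encodes Runt with an amino acid substitution. In the second, 3 samples were homozygous for both sensDF2RES and sensE1 (here sens mutant), and 3 carried a single copy of each (here sens control). ro is normally active in the furrow and in developing photoreceptors behind it, and the labels do not give the driver's own pattern. All arrays of the first experiment therefore carried a Runt transgene and all arrays of the second carried sens alleles, and no array is from an unmanipulated disc. The labels do not say whether the samples of a group came from separate crosses, so the p-values reflect how much these samples varied, and that variation may be technical.

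Array values are on a log2 scale that runs from 1.63 to 15.4, with a dense floor below about 3. Within groups, arrays correlated at 0.993 to 0.998, and none duplicated another. Of 10 eye disc markers 9 had a probe set, and the lowest group mean among them was 8.12, for ato. At an adjusted p under 0.05 by limma, 3 of these 9 (ey, toy and Optix) were higher in sens mutants and 1 (gl) lower. That is 44.4%, beside 16.9% of all probe sets tested. gl had 11.40, 11.25 and 11.44 in mutants, against 11.77, 11.67 and 12.06 in controls. The labels could be checked only in part. run has no probe set of its own here. The sens transcript was higher in the arrays labelled mutant, at 10.78, 10.36 and 10.61, against 8.96, 9.30 and 9.61 in those labelled control (a difference of 1.29, adjusted p = 0.00112 by limma). The labels do not say where the alleles alter the gene, so this level does not check them, and the groups are named below as labelled. boss, the R8 ligand gene, lay in the floor in sens mutants (2.27, 2.39 and 2.59) and at 6.48, 6.51 and 6.38 in sens controls. Runt replicate 3 stood apart from replicates 1 and 2, for example at 6.17 for boss against 7.25 and 7.38, with Runt G163R at 6.11, 6.51 and 6.25. Over all 11470 probe sets tested, 5 passed the limma test in the Runt comparison with this array and 119 without it.

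None of the 8 measured genes passed the test in either comparison. In the Runt comparison 0 of 8 passed at an adjusted p under 0.05 (limma, Benjamini-Hochberg over all probe sets tested), where 0.0436% of all probe sets did, so that with all arrays almost nothing on the array could be called. Without Runt replicate 3 it was again 0 of 8, where 1.04% of all probe sets passed. In the sens comparison 0 of 8 passed, where 16.9% of all probe sets did (11.6% higher and 5.30% lower in mutants). At an unadjusted p under 0.05 there was 1 gene of 8 in the Runt comparison (6.36% of all probe sets) and 3 of 8 in the sens comparison (30.9% of all probe sets). The median difference of the 8 genes was 0.022 in the Runt comparison and 0.14 in the sens comparison, beside -0.00068 and 0.031 over all probe sets. Their median absolute difference was 0.11 and 0.21 in these comparisons, beside 0.073 and 0.17 over all probe sets. The 2 sets differ in level, since 25.2% of all probe sets tested had an overall mean under 3. The lowest overall mean among the 8 genes was 7.46, for ptc. In bulk discs, fewer cells of a type and less RNA per cell cannot be told apart.

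**Figure D1:**
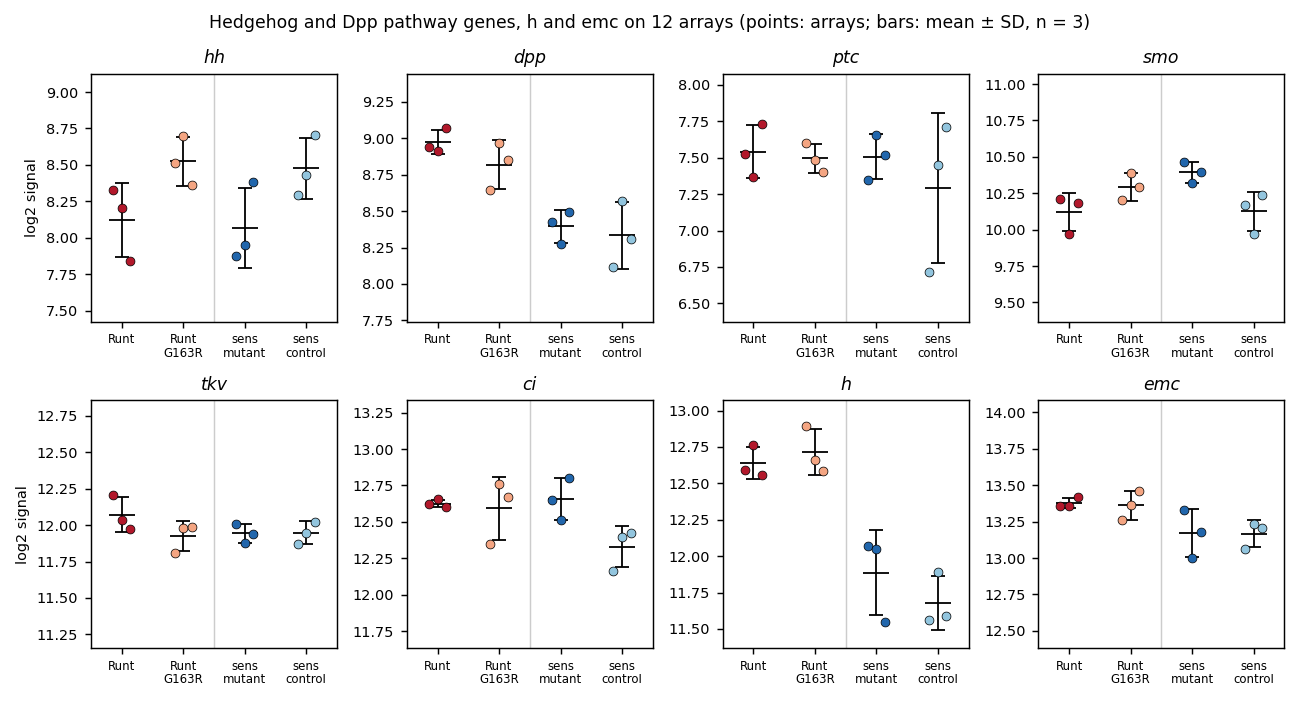
Log2 signal of the 8 measured genes on each of the 12 arrays, with 1 panel per gene on the same vertical span. Points are arrays, bars are mean ± SD (n = 3), and a grey line divides the Runt experiment from the sens experiment. Only h and dpp show all 6 arrays of the Runt experiment above all 6 of the sens experiment, and within each experiment most pairs of groups overlap.

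Of the ligand genes, hh showed the largest difference among the 8 in both comparisons, downward each time, and passed the test in neither. hh had 8.33, 8.20 and 7.84 in Runt discs, against 8.52, 8.70 and 8.36 in Runt G163R discs. The 2 groups did not overlap, but only a narrow gap parts the highest Runt array from the lowest Runt G163R array, and 9.44% of all probe sets separated these groups. The difference was -0.40 (log2, SE 0.18, 95% interval -0.80 to -0.0079, adjusted p = 0.773 by limma). Without Runt replicate 3, the lowest array, it was -0.26.

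In the sens experiment hh had 7.87, 7.95 and 8.38 in mutants, against 8.30, 8.43 and 8.71 in controls. Mutant replicate 3 lay inside the range of the controls, so the groups overlapped. The difference was -0.41 (SE 0.18, 95% interval -0.80 to -0.017, adjusted p = 0.145 by limma). The 2 comparisons share no arrays, but both intervals rest on 1 estimate of the spread from all arrays. Each interval lies below 0 only before adjustment for the number of probe sets. Across the 4 groups the order of hh means was Runt G163R (8.53), sens control (8.48), Runt (8.12) and sens mutant (8.07), and the arrays of each neighbouring pair overlapped. hh lies on 3R, and of its 10 nearest measured genes 1, CG6726, was called in the sens comparison.

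dpp is the relay of the Hedgehog signal in the furrow. Its probe set is of a type (suffix _s_at) that can match transcripts of more than 1 gene, although the annotation names dpp alone. dpp had 8.94, 8.91 and 9.07 in Runt discs, against 8.64, 8.97 and 8.85 in Runt G163R discs. It had 8.42, 8.27 and 8.50 in sens mutants, against 8.11, 8.57 and 8.31 in sens controls. The groups overlapped in both experiments. The difference was 0.15 with Runt (SE 0.12, adjusted p = 0.99 by limma) and 0.064 in the sens mutant (SE 0.12, adjusted p = 0.75 by limma). The Runt value was 0.064 without Runt G163R replicate 1 and 0.0089 with array weights, and the sens value ran from -0.045 to 0.18 leaving out 1 array. The 95% intervals reached at most 1.35-fold in the Runt comparison and 1.27-fold in the sens comparison.

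Of the receptor and transducer genes, smo came nearest to the threshold. smo had 10.21, 9.97 and 10.19 in Runt discs, against 10.20, 10.39 and 10.29 in Runt G163R discs. These groups overlapped, and the difference was -0.17 (SE 0.088, 95% interval -0.37 to 0.023, adjusted p = 0.844 by limma). It was -0.097 without Runt replicate 2. smo had 10.47, 10.32 and 10.40 in sens mutants, against 10.17, 9.97 and 10.24 in sens controls. All mutant arrays lay above all control arrays, as 38.0% of all probe sets separated these groups. The difference was 0.27 (SE 0.088, 95% interval 0.073 to 0.47, adjusted p = 0.0634 by limma), about 1.21-fold.

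The differences of smo in the 2 experiments pointed in opposite directions, and their own difference was tested. It was -0.44 (SE 0.12, 95% interval -0.72 to -0.17, adjusted p = 0.0508 by limma), just above the threshold, where 10.1% of all probe sets passed. Of the 8 genes 0 passed this test, and smo was the 1 gene with an unadjusted p under 0.05, as were 26.6% of all probe sets. The smo value depended on the processing. With array weights the adjusted p was 0.044 in the Runt comparison, 0.0204 in the sens comparison and 0.00372 for the difference between them, and with weights 4.06%, 23.2% and 23.3% of all probe sets passed in the same order. The difference between comparisons was below 0.05 in 4 of 21 alternative settings. In the Runt comparison smo passed in 1 of 22 alternatives, and in the sens comparison in 4 of 22. The sens call appeared without sens control replicate 3 (0.33, adjusted p = 0.0466) and also without Runt replicate 2, an array outside that comparison (adjusted p = 0.0488).

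ptc encodes the Hedgehog receptor and is itself a target that Hedgehog signalling raises. ptc had 7.53, 7.37 and 7.73 in Runt discs, against 7.60, 7.48 and 7.40 in Runt G163R discs, with a difference of 0.047 (SE 0.22, adjusted p = 1.00 by limma). It had 7.35, 7.65 and 7.52 in sens mutants, against 6.72, 7.45 and 7.71 in sens controls. Control replicate 1 lay far below the other controls, and the mutants fell inside the controls' range. The difference was 0.21 (SE 0.22, adjusted p = 0.534 by limma), and without sens control replicate 1 it was -0.075. Its interval reached 1.63-fold in the sens comparison, so a moderate change in ptc was not detectable with these arrays.

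tkv encodes the type I receptor for Dpp. Its brighter probe set had 12.21, 12.03 and 11.97 in Runt discs, against 11.81, 11.98 and 11.99 in Runt G163R discs. In the sens experiment it lay between 11.88 and 12.01 in mutants, against 11.87 to 12.02 in controls. The mutant values fell wholly inside those of the controls. The differences were 0.15 (SE 0.074, adjusted p = 0.844) and -0.0039 (SE 0.074, adjusted p = 0.98) by limma. The Runt value was 0.079 without Runt replicate 1 and 0.086 without Runt G163R replicate 1. The 95% interval in the sens comparison reached no further than 1.13-fold. The second tkv probe set lay in the floor on all 12 arrays, between 2.27 and 2.31, did not pass the filter and carries no information on the gene's level.

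ci, on chromosome 4, encodes the transcription factor through which Hedgehog acts. ci had 12.62, 12.65 and 12.60 in Runt discs, against 12.35, 12.76 and 12.67 in Runt G163R discs. The Runt arrays lay together inside the range of the others, with a difference of 0.031 (SE 0.11, adjusted p = 1.00 by limma). ci had 12.65, 12.51 and 12.80 in sens mutants, against 12.17, 12.40 and 12.43 in sens controls. The groups did not overlap, which makes ci and smo the 2 genes of 8 that separated mutants from controls. Of all probe sets, 38.0% did so. The difference was 0.33 (SE 0.11, 95% interval 0.076 to 0.58, adjusted p = 0.0751 by limma), about 1.25-fold. In 2 of 22 alternatives it passed, with the 60th percentile filter (adjusted p = 0.0401, where 26.5% of all probe sets passed) and without Runt G163R replicate 1 (adjusted p = 0.031, where 17.1% passed). Of the 76 probe sets tested on chromosome 4, 26.3% were called in the sens comparison, although none of the 6 nearest measured genes of ci was.

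Of the repressor genes, h had 12.59, 12.76 and 12.56 in Runt discs, against 12.89, 12.66 and 12.59 in Runt G163R discs. It had 12.07, 12.05 and 11.55 in sens mutants, against 11.56, 11.89 and 11.59 in sens controls. Both pairs of groups overlapped. The differences were -0.075 (SE 0.15, adjusted p = 1.00) and 0.21 (SE 0.15, adjusted p = 0.361) by limma. Mutant replicate 3 was the lowest of the 12 arrays, and without it the difference in the sens experiment was 0.38, against 0.12 without mutant replicate 1, 0.13 without mutant replicate 2 and 0.31 without control replicate 2.

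emc encodes a helix-loop-helix protein without a DNA-binding region that titrates proneural partners. It lay between 13.36 and 13.42 in Runt discs, against 13.26 to 13.46 in Runt G163R discs, and between 13.00 and 13.33 in sens mutants, against 13.06 to 13.23 in sens controls. In each experiment one group's values lay wholly inside those of the other. The differences were 0.013 (SE 0.083, adjusted p = 1.00) and 0.0035 (SE 0.083, adjusted p = 0.983) by limma. The 95% intervals reached at most 1.15-fold in the Runt comparison and 1.14-fold in the sens comparison. These are the narrowest bounds of the 8 genes in the Runt comparison, and in the sens comparison only that of tkv was narrower.

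**Figure D2:**
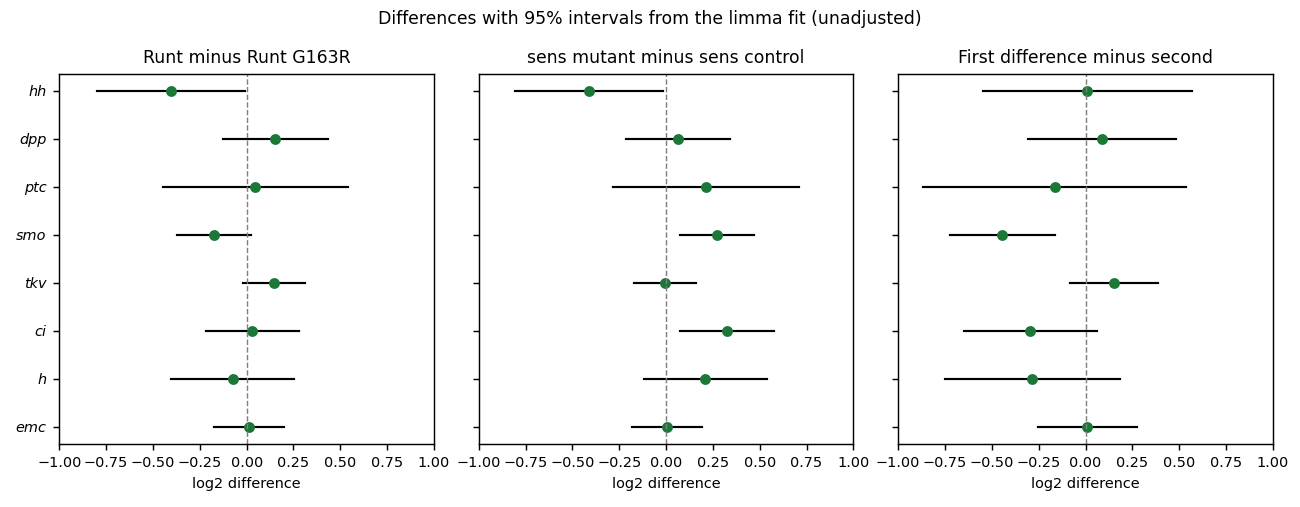
Log2 differences of the 8 measured genes in the Runt comparison, in the sens comparison, and in the first minus the second. Points are differences from the limma fit on 12 arrays and lines are 95% intervals before adjustment. hh lies left of 0 in both comparisons, and the line of smo lies clear of 0 in the sens comparison and in the difference between comparisons, although no gene passed after adjustment.

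h and dpp were the 2 genes of 8 that separated the experiments, a share close to the 23.8% of all probe sets that did. All 6 arrays of the Runt experiment lay above all 6 of the sens experiment for h (12.56 to 12.89 against 11.55 to 12.07) and for dpp (8.64 to 9.07 against 8.11 to 8.57). The means differed by 0.89 for h, which is 1.86-fold, and by 0.53 for dpp, which is 1.45-fold. This comparison was added after the values were seen. These values are a description, since the 2 experiments differ in genotype and in all else that was not shared between them, and these cannot be told apart. Of all probe sets, 13.9% separated the experiments with the Runt experiment higher, and 11.1% had a larger mean difference than h and 23.2% than dpp. Marker lists differed in both directions. Haemocyte markers had mean log2 levels of 9.01 in Runt and 9.22 in Runt G163R discs, against 6.74 in sens mutant and 7.27 in sens control discs. Their summed linear signal overlapped between Runt (19655 to 21372), Runt G163R (20471 to 20913) and sens control discs (19767 to 20948). In sens mutant discs it was lower, at 16390 to 19154, without overlap. For eye disc markers the array means ran from 11.3 to 11.4 in the Runt experiment, against 10.7 to 11.1 in the sens experiment. Brain and neuroblast markers went the other way, with mean log2 levels of 7.43 in Runt and 7.29 in Runt G163R discs, against 7.52 in sens mutant and 8.01 in sens control discs. So did antennal and leg markers, at 7.24 and 7.31 against 7.47 and 7.74. For both lists the array means of the Runt experiment overlapped those of sens mutants. Brain and neuroblast markers reached 7.50 in Runt discs, against 7.48 to 7.55 in sens mutants. Antennal and leg markers reached 7.44 in Runt G163R discs, against 7.31 to 7.59 in sens mutants. The part of these lists in the values of h and dpp was not tested. The other 6 genes overlapped between the experiments, ptc and ci among them, with mean differences of 0.12 for each of these. In the order of group means, the separation of the experiments necessarily parts 1 neighbouring pair for dpp and for h. That pair was Runt G163R and sens mutant for dpp, and Runt and sens mutant for h. All other neighbouring pairs of groups overlapped. For none of the 9 probe sets did 1 group stand above or below the other 9 arrays.

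The other genes of the same pathways were taken from 4 lists. In the Runt comparison none of their members passed the limma test, and the lowest adjusted p in any list was 0.593, for nej, which encodes the coactivator CBP (0.54). In the Hedgehog list 2 of 23 tested members (of 29 listed) rose in the sens mutant and none fell, a share of 8.70% beside 16.9% of all probe sets. disp, whose product releases Hedgehog from the cells that make it, had 8.79, 8.62 and 8.85 in mutants, against 8.08, 8.28 and 8.49 in controls. It rose by 0.47 (SE 0.11, adjusted p = 0.0118 by limma), and its call held in 21 of 22 alternatives. slmb, the F-box gene that limits both Ci and Armadillo, rose by 0.29 (adjusted p = 0.0361) and held its call in 13 of 22.

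In the Dpp list 4 of 25 tested members (of 29 listed) fell in the sens mutant and none rose, a share of 16%. salm and salr, the Spalt genes, which respond to Dpp in the wing disc and are also photoreceptor genes, fell by 1.54 and 1.40. wit, a type II BMP receptor gene, had 10.15, 9.95 and 10.21 in mutants, against 10.51, 10.82 and 10.63 in controls, and fell by 0.55 (adjusted p = 0.0116 by limma). sbb fell by 0.37 (adjusted p = 0.0327) and lost its call in 6 of 22 alternatives, and its other probe sets (-0.084 and 0.024) did not pass.

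In the Wingless list 1 of 22 tested members (of 45 listed) rose, slmb again, and 4 fell, in all 22.7%. H15, a T-box gene of the Wingless domain in leg discs, had 3.39, 2.91 and 3.47 in mutants, against 5.21, 6.24 and 5.93 in controls. It fell by 2.54 (SE 0.22, adjusted p = 0.000116 by limma), to values at the floor, so that the size is approximate. Its paralogue mid fell by 1.51 (adjusted p = 0.00263), Dll, the distal appendage gene, by 1.84 (adjusted p = 0.00263), and the receptor-like gene otk by 0.51 (adjusted p = 0.0151). For all 4 falling genes the control arrays stood above the other 9, which include those of the Runt experiment. The falls themselves compare groups within the sens experiment. Against the arrays of the Runt experiment, genotype and experiment cannot be told apart. In Runt G163R discs H15 lay at 2.78, 2.97 and 2.72, and mid at 6.41, 6.65 and 6.62. The mutants also lay above all arrays of the Runt experiment for Dll (6.64 to 6.83 against 4.61 to 5.97) and for mid (6.69 to 7.16 against 5.79 to 6.65).

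In the list of furrow and proneural genes 5 of 38 tested members (of 55 listed) rose and 3 fell, in all 21.1%. sens itself rose by 1.29, the eye selector genes ey and toy rose by 0.50 and 0.36, and ase fell by 1.27. Optix, which is expressed ahead of the furrow, had 9.54, 9.57 and 9.56 in mutants, against 8.48, 8.68 and 8.84 in controls. It rose by 0.89 (SE 0.12, adjusted p = 0.000906 by limma), and here too the controls stood apart from the other 9 arrays, below them. pnr, a GATA gene of the dorsal disc margin, rose by 0.43 (adjusted p = 0.0218) and lost its call in 6 of 22 alternatives. The other calls, spi and tgo, which were named after their values were seen, fell by 0.28 and 0.25, and lost their calls in 7 and 6 of 22 alternatives. Over the 4 lists, 18 different genes were called, of which the mutants stood apart from the other 9 arrays for 10 and the controls for 8. The share of all probe sets that do so was not counted. These genes were also picked for a difference between mutants and controls on the same arrays, so the count is a description only. The other 9 arrays include those of the Runt experiment, so genotype and experiment cannot be told apart in this count.

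**Figure D3:**
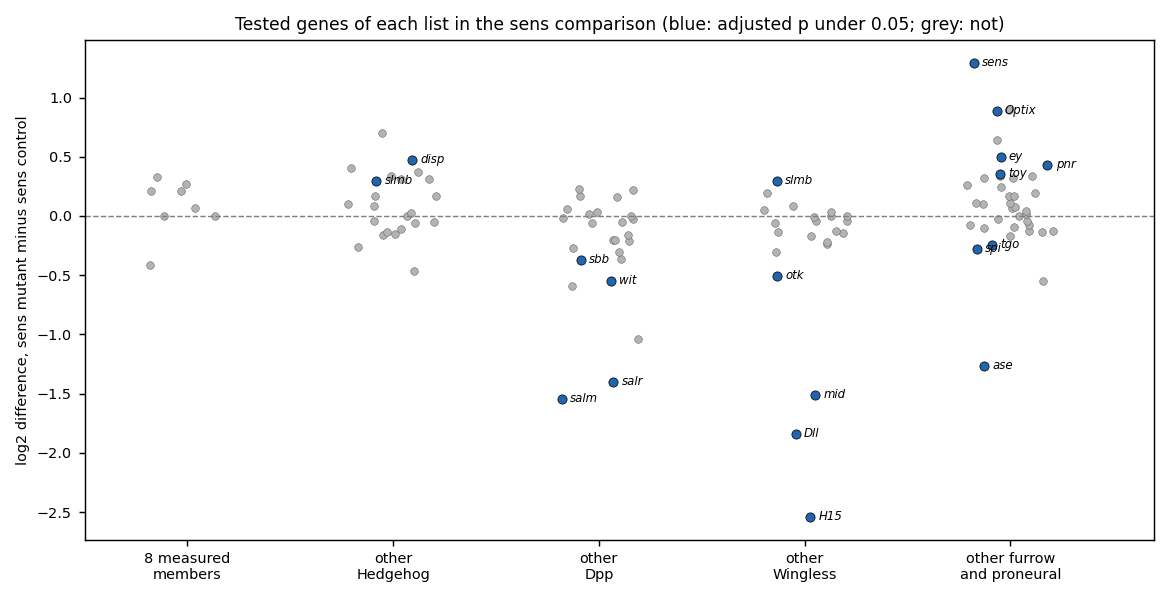
Log2 difference between sens mutant and sens control for each tested gene of the 8 measured genes and of the 4 other lists. Each point is a gene, blue where the adjusted p was under 0.05. All 8 genes in the first column are grey and lie between -0.41 and 0.33, while the blue points below -1 are H15, Dll, salm, mid, salr and ase.

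Dll and salm are also markers of antennal and leg discs, in which hh and dpp are strongly transcribed, and some of those markers were called in the sens comparison. Of 17 antennal and leg markers tested 4 were lower in mutants, 1 was higher and 12 did not pass (29.4% called, beside 16.9% of all probe sets). The summed signal of the list on the linear scale overlapped between the groups, at 7757 to 8603 in mutants, against 7592 to 10206 in controls, 8378 to 9852 in Runt discs and 8544 to 9872 in Runt G163R discs. The mean log2 level of the list also overlapped, at 7.31 to 7.59 in mutants and 7.50 to 7.93 in controls. al had a mean of 6.06 in mutants and 7.08 in controls. C15, the 1 marker of this list called higher, had 3.91, 3.68 and 4.09 in mutants, against 3.47, 3.52 and 3.59 in controls, not far above the floor. Of 17 brain and neuroblast markers tested 6 were lower and 3 higher (52.9% called). Their summed signal was 29681 to 34105 in mutants, against 26723 to 31990 in controls, 28125 to 30180 in Runt discs and 26474 to 26853 in Runt G163R discs. The sum is weighted to the brightest genes, and the mean log2 level of the list went the other way. It ran from 7.48 to 7.55 in mutants, against 7.95 to 8.13 in controls, without overlap. mira had a mean of 6.40 in mutants and 7.71 in controls, and Ddc 6.76 and 9.51, while hb, cas and acj6 lay in the floor in all 4 groups. The 3 called higher were Syp and the eye selector genes ey and toy. Syp had 13.46, 13.66 and 13.24 in mutants, against 12.96, 13.22 and 13.14 in controls, and its other probe set (-0.089) did not pass. In the Runt comparison none of these markers passed. Their part in the values of hh, dpp, smo and ci was not tested.

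Of the 76 measured genes nearest to the 8 on their chromosome arms, 14 (18.4%) were called in the sens comparison and none in the Runt comparison, beside 16.9% of all probe sets in the sens comparison. Of those beside hh, h and emc on chromosome 3, 6 of 30 (20%) were called, and of those beside the other 5 genes 8 of 46 (17.4%), where 23.3% of all 3L and 21.0% of all 3R probe sets were called. A change of at least 2-fold was seen for CG13896 near emc (8.12 in mutants and 6.73 in controls, a rise of 1.39) and for PIG-Wa near dpp (6.21 in mutants and 5.07 in controls, a rise of 1.14). dpp and emc themselves differed by 0.064 and 0.0035 on the same arrays.

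By root mean square difference over the 12 arrays, after each profile's mean was subtracted, the genes most like hh were trn (0.162), Oseg6 (0.164) and mthl14 (0.173), out of 9148 probe sets compared. The spread of hh around its own mean was 0.278 on this measure. The genes most like dpp were Stam (0.0969), nito (0.112) and RNaseZ (0.114), with a spread of 0.301 for dpp itself.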

How the data were processed

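For each array, 6 ug of total RNA gave the biotin-labelled cRNA that was hybridised (Affymetrix), per the labels' protocols. The deposited log2 values were made by the authors; MAS5, GCRMA and affy are named, without roles or versions, per the submitters' processing notes, and how background was corrected and arrays were normalized is not stated there. The log2 scale was judged from the range and near-equal quantiles. Genes were named through gene identifiers against RefSeq, Release 6 plus ISO1 MT, used for names, arms and neighbours only. Of 18952 probe sets, 183 controls were left out, and 11470 were kept because they exceeded the 40th percentile on 3 or more of the 12 arrays, among them 8 of the 9 probe sets described.

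All 12 arrays entered 1 linear model, a mean per group (limma 3.58.1, R 4.3.3, lmFit, eBayes with an intensity trend). Tests were two-sided, and p-values were adjusted by Benjamini-Hochberg over all kept probe sets. Where a gene had several probe sets, the one brightest on average stands for it. With 3 arrays a group, an exact permutation test could not go below 0.10, and none was run. The number of arrays limits the precision.

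Named are the 8 measured genes, up to 6 called genes a list with the smallest p, the 3 nearest profiles of hh and dpp, neighbours called and at least 2-fold changed, sens, run, and fixed or leading markers. boss, nej, CG6726, ato, hb, cas, acj6, C15 and Syp were named after their values were seen. These genes and lists were chosen with earlier results of these data known. Marker lists for 7 other tissues were read. In the sens comparison, where 16.9% of all probe sets were called, the glia list had 2 of 11 higher and 2 lower (36.4%). The peripodial and cuticle list had 2 of 8 higher and 1 lower (37.5%). Haemocyte had 1 of 14 lower (7.14%), muscle 1 of 5 higher (20%), and fat body and salivary gland none of 10. Filter, normalization, variance model, array weights, arrays fitted, replicate block, probe set choice and each replicate were varied.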

Additional observations from a re-analysis of the deposited data

How the results depend on the processing

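Of 520 single-gene values under 22 alternatives, 468 kept their direction and their side of the threshold, 11 passed the threshold (all smo or ci) and 41 changed sign, none of these past the threshold in either form. The cause of each change was not tested. The count of called genes in the Runt comparison became 1 with array weights; in the sens comparison it became 1 with the 60th percentile filter, median subtraction and array weights, and 0 to 1 leaving out 1 array (1 without Runt replicate 2, Runt G163R replicate 1 or sens control replicate 3); for the difference between comparisons it became 1 under the same 3 settings and 0 to 1 leaving out 1 array. The median difference of the 8 genes was 0.013 with median subtraction, -0.022 with array weights and -0.021 to 0.031 leaving out 1 array in the Runt comparison. In the sens comparison it was -0.0084 after a second quantile normalization, 0.18 with median subtraction, 0.027 with array weights and -0.044 to 0.19 leaving out 1 array. With array weights the sign changed for ci (-0.075), ptc (-0.037), h (0.034) and emc (-0.0070) in the Runt comparison, for ptc (-0.0086), dpp (-0.029) and tkv (0.013) in the sens comparison, and for emc (-0.047) in their difference. A second quantile normalization gave -0.068 for dpp and -0.028 for emc in the sens comparison and 0.067 for ptc in the difference. Median subtraction gave 0.042 for tkv in the sens comparison, and -0.046 for hh and -0.046 for emc in the difference. Leaving out 1 array gave, in the Runt comparison, -0.091 to 0.12 for ci, -0.048 to 0.13 for ptc, -0.14 to 0.015 for h and -0.038 to 0.063 for emc. In the sens comparison it gave -0.075 to 0.42 for ptc, -0.045 to 0.18 for dpp, -0.044 to 0.035 for tkv and -0.076 to 0.088 for emc, and in the difference -0.11 to 0.17 for hh, -0.37 to 0.12 for ptc, -0.031 to 0.20 for dpp and -0.076 to 0.089 for emc. Counts of called genes in the other lists, repeated after the data were seen, ranged from 1 to 5 in the Hedgehog list leaving out 1 array, and were 1 without a filter, 4 with the 60th percentile filter, 4 with median subtraction and 5 with array weights. They ranged from 3 to 5 in the Wingless list and from 5 to 12 in the furrow list leaving out 1 array. The deviations of same-numbered arrays from their group means correlated at -0.12 to 0.26 in the Runt comparison and -0.42 to 0.076 in the sens comparison. With so few arrays, these values cannot show whether the numbers pair the samples. With the replicate block the count of called genes remained 0 in all 3 tests.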
